A study of Mus musculus with 9 samples.

Results

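Messenger RNA of 10 genes that mark epithelial and mesenchymal cells was measured in 3 neighbouring layers of the mouse eye. The genes were the cadherins Cdh1, Cdh2, Cdh3 and Cdh11, the simple keratins Krt7, Krt8, Krt18 and Krt19, the epithelial adhesion gene Epcam and the vimentin gene Vim. A gene was taken when the gene name of a probe that was not a control equalled its symbol in any case, and 10 of 10 were found among 31829 gene names, on 13 of 39429 probes. The tissues were the choroid (CH), the retinal pigment epithelium (RPE) and the photoreceptors (PR), each laser dissected from cryosections of eyes of female C57BL/6 mice, with 3 arrays per tissue. The study's methods give the substrain as C57BL/6JOlaHsd. The labels give an age of 6 months within 2 weeks, and the study's methods give 5 months. No treatment, transgene or deletion is named for any group. Amplified RNA of each tissue was labelled with Cy5 and hybridised on a dual-colour Agilent array against 1 Cy3-labelled reference RNA, made from RPE and choroid and shared by all arrays, and dyes were not swapped. The value of a probe is log2(Cy5/Cy3), so 0 means a tissue signal equal to the reference, and values are compared within a probe only.

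Cadherins are adhesion receptors that hold neighbouring cells together at adherens junctions, where catenins tie them to actin. E-cadherin (Cdh1) and P-cadherin (Cdh3) are typical of epithelia, N-cadherin (Cdh2) of nerve cells and many other cells, and cadherin-11 (Cdh11) of mesenchymal cells. Keratins 8 and 18 pair into the intermediate filaments of simple epithelia, such as the RPE, with keratins 7 and 19 as further members of that class, and vimentin forms the intermediate filaments of fibroblasts, endothelium, glia and other cells.

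A probe was called different at a fold change (FC) above 2.5 with a limma B-H adjusted p-value below 0.01, adjusted over all 39429 probes. Between the RPE and the CH, 0 of the 13 member probes were called higher in the RPE (0.185% of all probes were), and 2 were called lower, those of Cdh1 and Cdh11 (1.55% of all probes were higher in the CH). At an unadjusted limma p below 0.05, 6 of the 13 lay above the CH in the RPE (17.9% of all probes did) and 3 below it (15.7%). Between the RPE and the PR, 7 probes, which stand for 6 genes, had the higher value in the RPE (10.3% of all probes) and 0 in the PR (5.17%, with 2 member probes and 28.1% of all probes at an unadjusted p below 0.05). The same 7 probes, of Cdh1, Cdh3, Cdh11, Krt8, Krt18 and Vim, exceeded the PR in the CH (12.0% of all probes), and 0 were higher in the PR (6.33%, with 3 and 31.0% at an unadjusted p below 0.05). At that unadjusted p, 7 member probes exceeded the PR in the RPE (27.1% of all probes) and 7 in the CH (26.9%). Over the 10 genes the median log2 difference was 0.38 for RPE minus CH, 2.19 for RPE minus PR and 2.58 for CH minus PR, while over all probes it was 0.04, -0.01 and -0.05. The RPE entered both of its comparisons and the PR entered both of theirs, so these counts are not independent of each other. Fewer cells of a type and less RNA per cell cannot be told apart in such tissue samples.

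**Figure D1:**
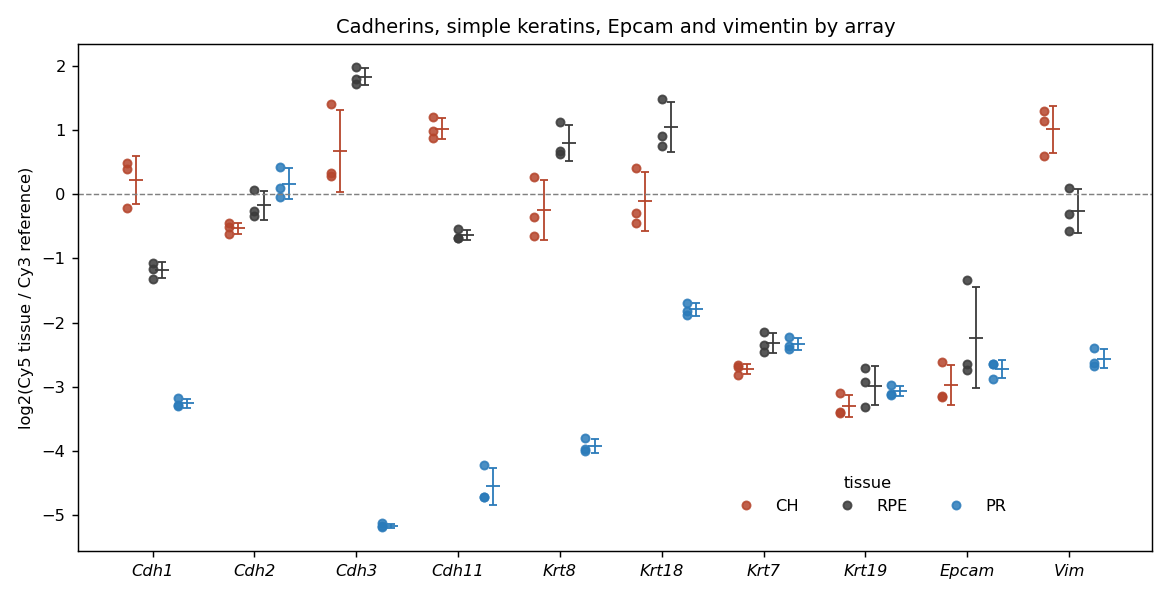
Log2(Cy5/Cy3) of each gene's reported probe on the 9 arrays (points) with the mean and SD of each tissue beside them (bars), against the common reference at 0 (dashed line). Cdh1, Cdh3, Cdh11, Krt8, Krt18 and Vim lie lowest in the PR, whereas Krt7, Krt19 and Epcam lie far below the reference in every tissue.

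Some arrays stood apart. RPE replicate 2 had 91.7% of its probes well above background in Cy5, against 62.1% to 71.2% on the other 8 arrays. CH replicate 3 carried more RPE transcript than the other CH arrays: the mean log2 ratio over 8 RPE markers (Rpe65, Lrat, Rdh5, Rgr, Best1, Ttr, Rlbp1 and Mertk) was 1.03 on it, 0.48 and 0.24 on CH replicates 1 and 2, 1.71 to 2.08 in the RPE and -2.74 to -2.61 in the PR. The log2 of the summed Cy5 signal of these markers was 20.4 to 20.8 in the CH, 20.9 to 21.0 in the RPE and 18.2 to 18.7 in the PR, with Ttr saturated on all CH and RPE arrays, Rpe65, Rdh5 and Rgr on all RPE and some CH arrays, and Lrat on 1 RPE array. Best1 was well above background on 0 of 3 CH, 1 of 3 RPE and 1 of 3 PR arrays. Lens transcript also set 2 arrays apart: Cryba1, a lens crystallin gene, read 4.25 on RPE replicate 3 against 0.21 and -0.37 on the other RPE arrays, and -3.56 on CH replicate 3 against 1.26 and 1.16 on the other CH arrays. Bfsp1, which codes for a lens filament protein, and Cryaa, another crystallin gene, had their highest RPE value and their lowest CH value on the same arrays. The labelled tissues carried their markers: 5 of the 8 RPE markers exceeded the CH in the RPE by the same rule and 7 of 8 exceeded the PR, and 8 of 8 rod markers were lower in the RPE and in the CH than in the PR. Of 7 fibroblast markers 6 were lower in the RPE than the CH, and their mean log2 ratio was 0.84 to 1.18 in the CH, -1.17 to -0.91 in the RPE and -4.55 to -4.0 in the PR, with the log2 of their summed Cy5 signal at 19.8 to 19.9, 18.1 to 18.5 and 15.5 to 15.9. Slides held the tissues unevenly: slide 1 held replicates 1 and 3 of the CH and the RPE, slide 2 held replicate 2 of all 3 tissues, and slide 3 held PR replicates 1 and 3, and each slide was scanned on its own day. The study's methods state that each sample came from 1 whole eye, with 3 eyes per tissue. Neither they nor the labels tie the 3 arrays of a tissue to separate animals by name, so p-values measure the spread between these samples.

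E-cadherin, the adhesion receptor usually read as the mark of an epithelium, had less signal in the RPE than the CH. Its log2 ratio was 0.48, 0.39 and -0.21 on the 3 CH arrays, -1.07, -1.32 and -1.17 on the RPE arrays and -3.18, -3.31 and -3.29 on the PR arrays. The 3 tissues did not overlap, with the CH highest and the PR lowest. The RPE was 2.65-fold below the CH (log2 difference -1.40 ± 0.17 SE, B-H adjusted p = 0.000557) and 4.21-fold above the PR (adjusted p = 4.03e-06), and the CH lay 3.48 ± 0.17 above the PR on the log2 scale (adjusted p = 9.2e-08). The probe for transcript NM_009864 (chr8:109193812-109193871, mm9, plus strand) was printed 10 times per array, and the SD over the 10 spots of an array was 0.022 to 0.084, while the SD between arrays was 0.376 in the CH, 0.125 in the RPE and 0.0685 in the PR. Within slides the RPE minus CH difference was -1.25 on slide 1 and -1.71 on slide 2. The call against the CH was lost without CH replicate 1, at -1.27, or CH replicate 2, at -1.32, where the FC fell under 2.5, and was -1.62 without CH replicate 3.

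Cadherin-11, the mesenchymal family member, had the same order with larger steps. Its reported probe (NM_009866, chr8:105157473-105157532, mm9, minus strand) read 1.20, 0.99 and 0.88 in the CH, -0.55, -0.68 and -0.68 in the RPE and -4.72, -4.22 and -4.72 in the PR. No tissue overlapped another. The RPE lay 1.66 log2 units below the CH, an FC of 3.16 (SE 0.15, B-H adjusted p = 0.000153), and 15.1-fold above the PR (adjusted p = 3e-08), and the CH was 47.7-fold above the PR (adjusted p = 3.65e-09). The difference from the CH was -1.65 on slide 1 and -1.67 on slide 2, and it was called with any 1 array left out. A second Cdh11 probe, of which only 33 of the 60 bases are placed at its listed position, was dim and did not show this order. Its Cy3 reference signal was 619 to 948, against 11067 to 15778 for the reported probe. In Cy5 it was well above background on 2 of 3 CH arrays and on all RPE and PR arrays. Its means were -1.16 ± 0.33 in the CH, -1.02 ± 0.11 in the RPE and -0.87 ± 0.27 in the PR (SD, n = 3), and no comparison was called. Fibroblast markers had the same order as Cdh1 and Cdh11, as given above, but so did other cell types. Mean log2 ratios of the melanocyte markers were 0.62 to 0.81 in the CH, -0.375 to 0.01 in the RPE and -3.32 to -3.05 in the PR. Those of smooth muscle and pericytes were 1.0 to 1.71, 0.21 to 0.49 and -2.5 to -2.46. Immune markers had -0.02 to 0.5, -0.33 to -0.14 and -1.815 to -1.66. Of the 7 melanocyte markers, 6 lay below the CH in the RPE at an unadjusted limma p below 0.05 (15.7% of all probes did). Tyr lay above it, by 0.68 (17.9% of all probes did), and the study's methods count Tyr among established RPE genes. Sox10 differed by -0.27 (B-H adjusted p = 0.0859), and neither gene was called. That list is therefore not a reading of melanocytes alone. The part of any of these cells in the result was not tested.

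P-cadherin was the member with the widest range. Its probe (NM_007665, chr8:109079933-109079992, mm9, plus strand) read 0.29, 0.33 and 1.41 in the CH, 1.72, 1.79 and 1.98 in the RPE and -5.18, -5.13 and -5.19 in the PR, where it was still well above background on 3 of 3 arrays. The RPE exceeded the PR 128-fold (SE 0.26 on the log2 scale, B-H adjusted p = 2.51e-08) and the CH exceeded it 57.2-fold (adjusted p = 4.65e-08). RPE and CH arrays did not overlap, but the difference of 1.16 ± 0.26, an FC of 2.23, was not called (adjusted p = 0.0101). It was 1.00 on slide 1 and 1.47 on slide 2. The CH replicate with the highest Cdh3 value, replicate 3, is the one with the highest RPE marker level, and without it the difference was 1.52 and was called (adjusted p = 8.51e-05). The part of RPE transcript in the CH value was not tested.

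N-cadherin was the cadherin of this set that was not lower in the PR. Its reported probe read -0.63, -0.45 and -0.51 in the CH, -0.34, -0.25 and 0.07 in the RPE and -0.04, 0.43 and 0.10 in the PR. The PR lay above the CH without overlap, by 0.69 ± 0.15 on the log2 scale, an FC of 1.62 that did not reach the threshold (B-H adjusted p = 0.00268). RPE and PR overlapped, and the difference of -0.34 ± 0.15 was not called (adjusted p = 0.0863). RPE and CH did not overlap, but the difference of 0.35 ± 0.15 was not called (adjusted p = 0.123). The second Cdh2 probe gave means of -0.07 ± 0.10, -0.13 ± 0.12 and 0.23 ± 0.23 (SD, n = 3) for CH, RPE and PR, and no pair of tissues was called. On that probe the CH overlapped the RPE and also the PR (CH up to 0.04, PR from 0.03), so the separation of PR and CH on the reported probe was not seen there (adjusted p = 0.0731). RPE and PR did not overlap on it, with a difference of -0.36 ± 0.13 (adjusted p = 0.041).

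**Figure D2:**
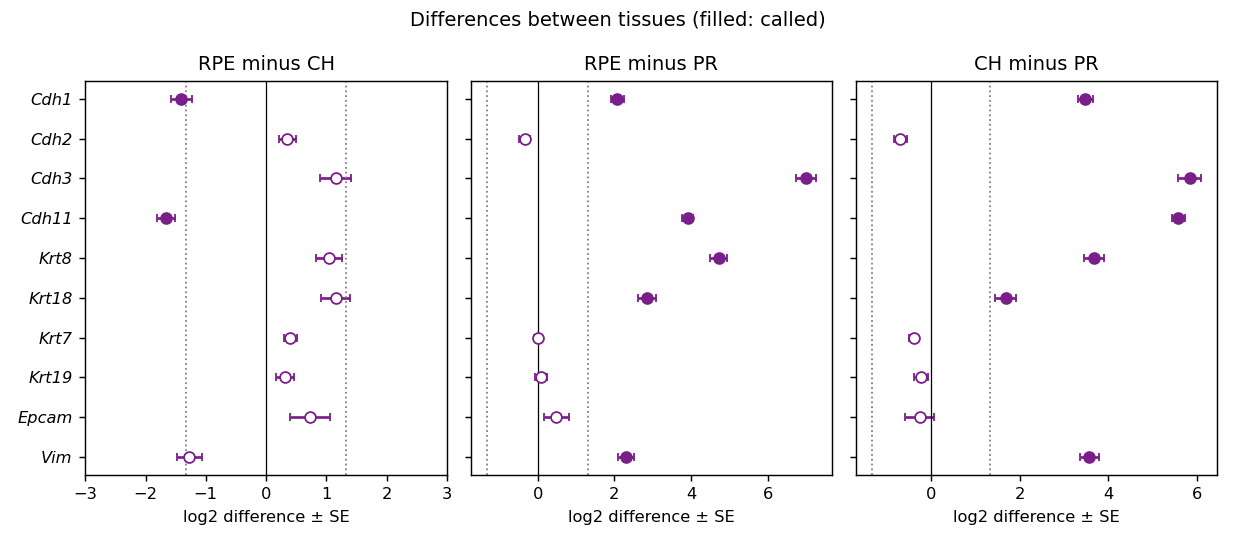
Log2 difference ± SE between tissues for the reported probe of each gene, from the limma fit of 9 arrays. Dotted lines mark an FC of 2.5 either way and filled points were called: Cdh1 and Cdh11 in RPE minus CH, and Cdh1, Cdh3, Cdh11, Krt8, Krt18 and Vim in both comparisons with the PR.

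The 4 keratins split into 2 patterns, and an oligo that reads each of them is shown as a description. The probes below are 60 bases long, as the array files give them, and capitals mark the longest run that a probe shares with any of the other printed probes, Epcam included.
Krt8: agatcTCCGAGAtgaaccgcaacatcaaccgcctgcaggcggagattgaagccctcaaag
Krt18: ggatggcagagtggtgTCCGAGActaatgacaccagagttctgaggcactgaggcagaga
Krt7: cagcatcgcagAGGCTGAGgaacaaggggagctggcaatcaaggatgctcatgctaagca
Krt19: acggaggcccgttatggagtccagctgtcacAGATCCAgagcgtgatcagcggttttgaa
These runs were 7 or 8 bases long. They compare the printed oligos with each other only, so a match of an oligo to the transcript of another keratin was not tested. The brighter Krt8 probe, the reported one, is not among them. The Krt8 and Krt18 probes share one of them (7 bases), and the Krt7 run of 8 bases recurs in the Epcam probe. On mm9 the oligos lie at chr15:101828827-101828886 (Krt8, NM_031170, minus strand), chr15:101862341-101862400 (Krt18, NM_010664, plus strand), chr15:101253718-101253777 (Krt7, NM_033073, plus strand) and chr11:100002392-100002451 (Krt19, NM_008471, minus strand). An annotation of that build was not used here, so exons are not assigned.

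Keratin 8, the type II partner of simple epithelia, exceeded the PR in both the RPE and the CH. Its brighter probe (AK166854, chr15:101827138-101827197, mm9, minus strand) read -0.35, -0.64 and 0.26 in the CH, 0.62, 1.12 and 0.67 in the RPE and -3.80, -4.01 and -3.97 in the PR. The RPE was 26.5-fold above the PR (log2 difference 4.73 ± 0.22 SE, B-H adjusted p = 9.93e-08) and the CH 12.8-fold (adjusted p = 3.79e-07). The RPE arrays all lay above the CH arrays, by 1.05 ± 0.22 or an FC of 2.07, which was not called (adjusted p = 0.00804). The oligo printed above read -0.24, -1.05 and -0.51 in the CH, 0.62, 0.95 and 0.52 in the RPE and -2.82 and -2.90 on PR replicates 1 and 2, its spot on PR replicate 3 having been marked as an outlier and dropped. It gave an RPE minus CH difference of 1.29 ± 0.20 (FC 2.45, adjusted p = 0.0026) and an RPE signal 11.8-fold above the PR (adjusted p = 1.9e-06). Both probes thus placed the RPE above the CH, under the FC threshold with all arrays. The oligo printed above passed it without CH replicate 1, at 1.47, without CH replicate 3, at 1.34, and without RPE replicate 3, at 1.38 (adjusted p = 0.00277, 0.00546 and 0.00765), whereas the brighter probe was not called with any 1 array left out.

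Keratin 18, the type I partner, followed the same order. Its log2 ratio was -0.29, -0.45 and 0.41 in the CH, 0.75, 1.48 and 0.91 in the RPE and -1.82, -1.69 and -1.88 in the PR, with no overlap between tissues. The RPE was 7.18-fold above the PR (B-H adjusted p = 5.3e-06) and the CH 3.22-fold (adjusted p = 0.000185). Of the calls against the PR, that of Krt18 in the CH was lost in 3 settings: at 1.29 with the Cy5 signal alone, at 1.17 in the authors' series table, and at 1.63 with slide as a block, where the adjusted p was 0.0132. Against the CH, the RPE lay 1.16 ± 0.24 higher (adjusted p = 0.00758), an FC of 2.23 that was under the FC threshold and so not called.

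Within the CH and the RPE, the brighter Krt8 probe and Krt18 had the same highest arrays, CH replicate 3 and RPE replicate 2. This was not so in the PR, where replicate 2 was the lowest for Krt8 and the highest for Krt18, nor in the CH on the other Krt8 probe, which was highest on replicate 1. Across slides the RPE minus CH difference was 0.69 and 1.77 for that Krt8 probe and 0.77 and 1.94 for Krt18, on slides 1 and 2. RPE replicate 2, on slide 2, is the array with the raised share of probes above background. Without it the differences were 0.89 and 0.94, and without CH replicate 3 they were 1.30 and 1.42, the latter called (adjusted p = 0.00137). Over the 9 arrays Pearson's r between Krt8 and Krt18 was 0.972 and between Krt8 and Cdh3 0.995, given as a description, since the 9 points fall into 3 tissues and share arrays and reference.

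**Figure D3:**
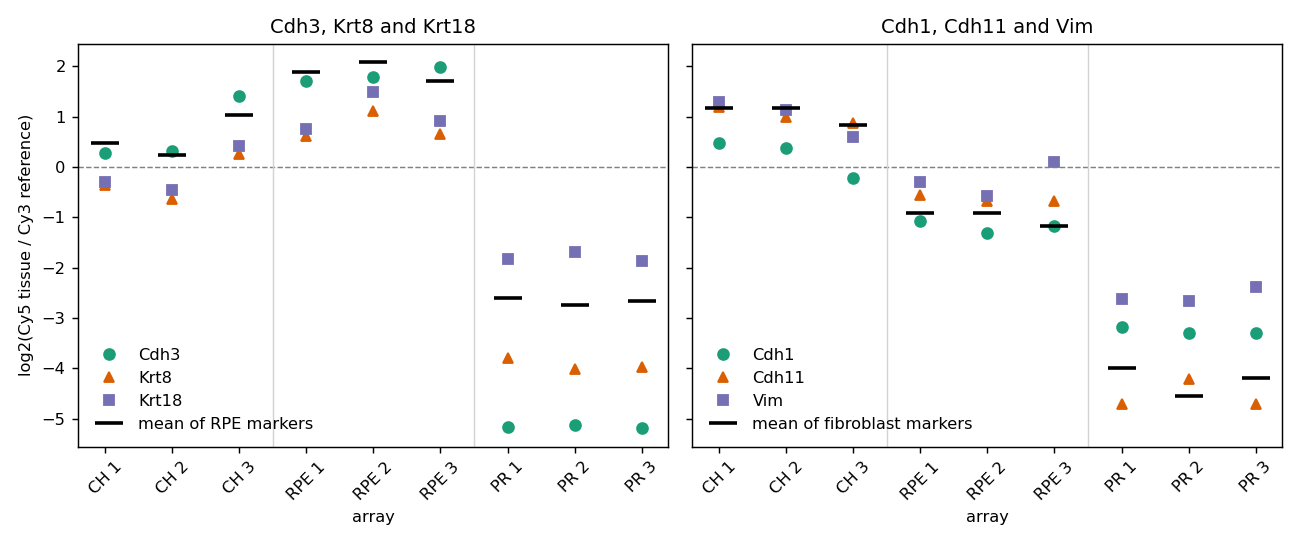
Log2(Cy5/Cy3) on each array of Cdh3, Krt8 and Krt18 with the mean of 8 RPE markers (left), and of Cdh1, Cdh11 and Vim with the mean of 7 fibroblast markers (right). CH replicate 3 lies nearest to the RPE arrays in the left panel, with Cdh3 at 1.41 and the RPE markers at 1.03.

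The genes of this pair lie head to head in the mouse genome, with transcript starts 23.9 kb apart on chromosome 15 (GRCm38.p6). RefSeq windows before the start were at hand for 5 of the 10 genes: Krt7, Krt8, Krt18, Epcam and Vim. The 250 bases before the start are shown for the keratin pair, which had the same order of tissues, and for Vim, which had the opposite order between RPE and CH. Capitals mark matches, on either strand, to the TATA box TATAAA, the GC box GGGCGG, the E-box CAGGTG bound by the ZEB and SNAI repressors, or the AP-1 site TGACTCA, and no 2 of these motifs overlap there.
Krt8, chr15:102004343-102004592, minus strand: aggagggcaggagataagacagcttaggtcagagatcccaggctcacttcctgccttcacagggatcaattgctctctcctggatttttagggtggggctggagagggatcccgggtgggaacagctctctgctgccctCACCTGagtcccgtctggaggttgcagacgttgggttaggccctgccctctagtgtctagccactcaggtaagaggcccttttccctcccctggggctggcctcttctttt
Krt18, chr15:102027966-102028215, plus strand: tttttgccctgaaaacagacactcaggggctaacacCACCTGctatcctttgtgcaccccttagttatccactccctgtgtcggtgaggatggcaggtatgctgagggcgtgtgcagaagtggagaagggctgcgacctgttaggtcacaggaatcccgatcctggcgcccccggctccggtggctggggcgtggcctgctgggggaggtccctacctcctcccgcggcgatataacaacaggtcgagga
Vim, chr2:13574061-13574310, plus strand: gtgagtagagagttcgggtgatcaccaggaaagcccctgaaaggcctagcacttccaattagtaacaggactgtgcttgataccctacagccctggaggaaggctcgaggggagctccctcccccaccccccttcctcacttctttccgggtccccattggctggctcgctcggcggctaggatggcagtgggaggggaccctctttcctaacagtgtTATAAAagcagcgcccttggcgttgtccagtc
The E-box letters occur once before Krt8, beginning 111 bases ahead of the start, once before Krt18, 214 bases ahead, once before Krt7 and at 2 places before Epcam, and 17.2% of 32851 windows of that length hold them. The Vim window holds none of the E-box letters and has TATAAA beginning 32 bases ahead of the start, which 12.4% of windows hold. The GC box was found before Krt7 and Epcam (32.7% of windows) and the AP-1 letters before none of the 5 (4.5%). These are matches of letters and no measure of binding.

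Keratins 7 and 19, which line many glandular ducts, lay far below the common reference in each tissue. The log2 ratio of Krt7 was -2.70, -2.81 and -2.67 in the CH, -2.45, -2.15 and -2.36 in the RPE and -2.22, -2.41 and -2.37 in the PR. RPE and CH did not overlap, but the difference of 0.41 ± 0.11 was not called (B-H adjusted p = 0.0219), and RPE and PR overlapped. Krt19 read -3.10, -3.40 and -3.40, then -2.92, -3.32 and -2.71, then -2.98, -3.12 and -3.11 in CH, RPE and PR, and all 3 tissues overlapped. Its differences were 0.32 ± 0.15 for RPE minus CH, 0.09 ± 0.15 for RPE minus PR and -0.23 ± 0.15 for CH minus PR, none called (adjusted p = 0.186, 0.682 and 0.246). Both probes were well above background in Cy5 on 9 of 9 arrays, and their Cy3 reference signals were 3038 to 5078 for Krt7 and 11022 to 20851 for Krt19.

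Epcam, which codes for an adhesion molecule of epithelial cells, was near background in the tissues. It was read by the oligo below, whose 60 bases span 829 bases of genome (chr17:88048972-88049800, mm9, plus strand, NM_008532), with the run shared with the Krt7 probe in capitals.
Epcam: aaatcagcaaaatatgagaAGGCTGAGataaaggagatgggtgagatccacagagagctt
Its log2 ratio was -3.17, -3.15 and -2.61 in the CH, -2.65, -1.33 and -2.73 in the RPE and -2.64, -2.89 and -2.64 in the PR, and the tissues overlapped. RPE replicate 2 stood above the other RPE arrays, and it was the only RPE array on which the probe was well above background, as were 0 of 3 CH and 2 of 3 PR arrays. On the Cy5 scale the PR mean lay 1.20-fold above a CH limit, taking for each CH array the higher of the probe's signal and the lowest signal well above background. That bound is no established difference: the limma adjusted p was 0.565 for the ratio and 0.401 for the Cy5 signal alone. The same bound for the RPE, 1.31-fold, was carried by RPE replicate 2, whose log2 Cy5 signal was 9.48 against 7.60 and 7.56 on the other RPE arrays. Without that array the RPE mean, 7.58, lay under the CH limit of 7.83, so no bound was left, and the RPE minus CH difference in log2 ratio was 0.28 in place of 0.74 (adjusted p = 0.151 with all arrays).

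Krt7, Krt19 and Epcam were thus 3 of the 10 genes with a mean log2 ratio below -2 in all 3 tissues, a place held by 345 of 39429 probes (0.87%). Of 13 keratins of stratified epithelia, 7 were there as well (Krt4, Krt5, Krt6b, Krt12, Krt13, Krt15 and Krt17), as were 4 of 13 desmosome genes (Dsg1a, Dsc2, Pkp1 and Ppl) and 1 of 15 other intermediate filament genes. These genes are named for that place, after their values were seen. Krt12, a keratin of the corneal epithelium, had means of -4.09 in the CH, -3.91 in the RPE and -3.64 in the PR. Of the other lists of related genes, none of 19 other cadherins, 16 catenins and linkers and 15 transcription regulators was there. With a single dye orientation, a probe's dye bias and a difference between tissue and reference cannot be told apart in such a level, whereas it is shared by the tissues compared.

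Vimentin was highest in the CH. Its probe (NM_011701, chr2:13504232-13504291, mm9, plus strand) read 1.30, 1.14 and 0.60 in the CH, -0.31, -0.57 and 0.09 in the RPE and -2.62, -2.67 and -2.39 in the PR. No tissue overlapped another. The RPE lay 1.27 ± 0.21 below the CH, an FC of 2.42 just under the threshold (B-H adjusted p = 0.00236), and 4.93-fold above the PR (adjusted p = 8.7e-06), and the CH was 11.9-fold above the PR (adjusted p = 3.17e-07). The RPE minus CH difference was -1.06 on slide 1 and -1.71 on slide 2, and it passed the threshold without CH replicate 3, at -1.48, or without RPE replicate 3, at -1.45. With the Cy5 signal alone it was -0.77. CH replicate 3, the lowest CH array for Vim, and RPE replicate 3, the highest RPE array, are those with the least and the most lens transcript of their tissues: the mean log2 ratio of 7 cornea and lens markers was -2.86 on the former against -0.89 and -1.04 in the CH, and 0.24 on the latter against -1.31 and -1.73 in the RPE. CH replicate 3 also had the highest RPE marker mean of the CH arrays, 1.03. Its fibroblast mean, 0.84, and its smooth muscle and pericyte mean, 1.00, were the lowest of the CH arrays. The part of lens transcript or of any of these cells in the Vim values was not tested, and they cannot be told apart on this array.

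**Figure D4:**
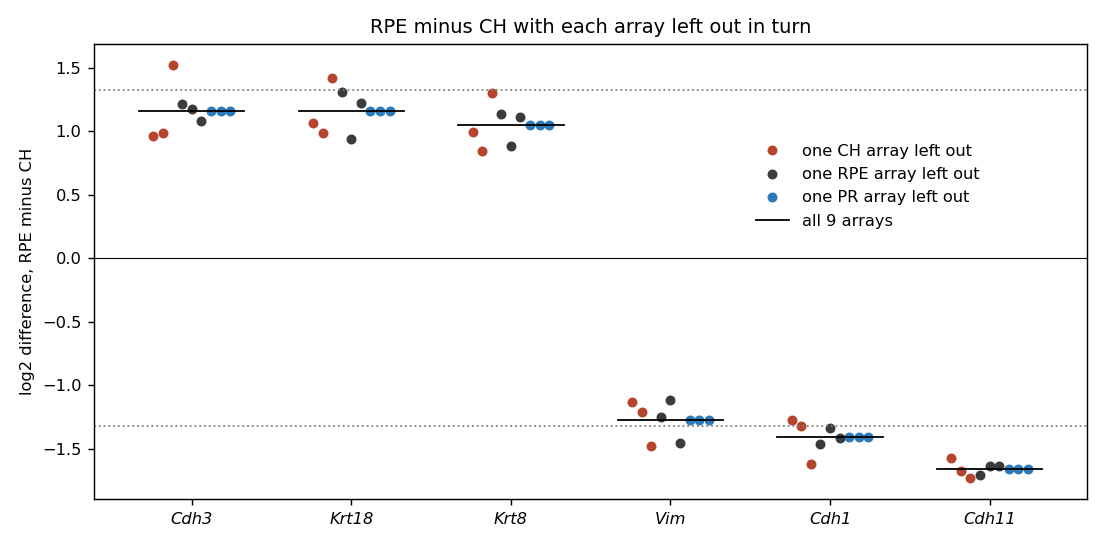
RPE minus CH log2 difference of 6 genes with each of the 9 arrays left out in turn (points, coloured by the tissue of the array) and with all arrays (black line). Dotted lines mark an FC of 2.5: Cdh11 stays beyond it throughout, and Cdh1, Cdh3, Krt18 and Vim cross it.

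The order RPE, CH, PR thus held for Cdh3, Krt8 and Krt18, and the order CH, RPE, PR for Cdh1, Cdh11 and Vim, each with the 3 tissues not overlapping on the reported probe (4.94% and 8.75% of all probes had these orders without overlap, and 23.3% any order), though between RPE and CH only Cdh1 and Cdh11 were called. Slide 2 held 1 array of each tissue. On it the 7 probes called against the PR lay 1.99 to 6.92 above it in the RPE and 1.24 to 5.46 in the CH. Their direction there is no separate check. These arrays were part of the fit that gave the calls, and on these probes the PR overlapped neither other tissue. The number of RPE minus CH calls among the 13 probes rested on single arrays: it was 6 without CH replicate 3, where Cdh3, Krt18 and the dimmer Krt8 probe were higher in the RPE and Cdh1, Cdh11 and Vim lower, 4 without RPE replicate 3 (the dimmer Krt8 probe higher, and Cdh1, Cdh11 and Vim lower) and 1 without CH replicate 2, in place of 2. Without CH replicate 1 it was 2 again, with Cdh11 still called, the dimmer Krt8 probe having gained a call and Cdh1 having lost one.

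Genes that work with these members were read from lists, whose counts stand beside these shares of all probes. In the RPE 0.185% were called higher and 1.55% lower than in the CH. Against the PR, 10.3% were called higher and 5.17% lower in the RPE, and 12.0% and 6.33% in the CH. At an unadjusted limma p below 0.05, 17.9% were higher and 15.7% lower in the RPE than the CH. For RPE against PR these shares were 27.1% and 28.1%, and for CH against PR 26.9% and 31.0%. Of 19 other cadherins, 1 was called between RPE and CH: Cdh13, a cadherin of vessels without a cytoplasmic tail, fell by 1.40 on the log2 scale in the RPE (B-H adjusted p = 0.00032). Against the PR, 5 of the 19 had more signal in the RPE and 3 in the CH, led by Cdh5, the cadherin of endothelium, at 5.46 and 5.86 (adjusted p = 2.02e-08 and 8.65e-09). Cdh19 was not well above background in the PR, which the RPE exceeded at least 10.7-fold and the CH at least 15.3-fold (adjusted p of the log2 ratio = 1.27e-07 and 3.81e-08). Here and below, such bounds are on the Cy5 scale, as given for Epcam, whereas the adjusted p-values beside them test the log2 ratio. The limit used in them is approximate: Epcam on RPE replicate 1, at 7.60, exceeded it (7.56) without being well above background. Cdh10 and Cdh22 were 2.00 and 1.72 higher in the RPE than the PR, Cdh10 being well above background on 1 of 3 PR arrays, and Cdh13 was 1.88 higher in the CH than the PR (largest adjusted p = 0.00178). The median log2 difference over the 19 was 0.11 for RPE minus CH, 0.13 for RPE minus PR and 0.15 for CH minus PR.

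Of 16 catenins and other linkers of adherens junctions, 0 were called between RPE and CH (5 at an unadjusted p below 0.05) and 3 exceeded the PR in the RPE: Ctnnd1 (p120-catenin) by 2.1, Pvrl2 (a nectin) by 1.89 and Ctnna1 (alpha-catenin) by 1.71 on the log2 scale (B-H adjusted p = 1.86e-07, 2.83e-07 and 6.68e-07). The same 3 exceeded the PR in the CH, as did Pvrl4, another nectin, by 1.34 (largest adjusted p = 6.68e-05). Ctnnb1, the beta-catenin gene, had differences of -0.24, 0.95 and 1.19 in the 3 comparisons and was not called, and is named for its role after its values were seen. The list's medians were -0.02, 0.31 and 0.48.

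Of 13 desmosome genes, 0 were called between RPE and CH (5 at an unadjusted p below 0.05) and 2 against the PR. Perp exceeded the PR by 5.15 in the RPE and by 3.92 in the CH, and Dsp, which ties keratin filaments to desmosomes, by 2.88 and 1.79 (largest B-H adjusted p = 5.84e-06). Between RPE and CH, Perp differed by 1.23 and Dsp by 1.09, under the FC threshold. Medians over the list were 0.27, 0.25 and 0.06.

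Of 3 other simple epithelial keratins, Krt23 was called, at 3.45 for RPE minus PR and 2.42 for CH minus PR (B-H adjusted p = 2e-07 and 1.7e-06), with a list median of 0.50, 0.68 and 0.18. None of the 13 measured keratins of stratified epithelia was called in any comparison, with 2, 3 and 4 at an unadjusted p below 0.05 for RPE minus CH, RPE minus PR and CH minus PR, and their medians were 0.17, 0.07 and -0.14. Of 15 other intermediate filament genes, 0 were called between RPE and CH (6 at an unadjusted p below 0.05). Against the PR, 4 were higher and 1 lower in the RPE, and 5 were higher and 1 lower in the CH: lamin A/C (Lmna) was 2.42 and 3.25 higher, whereas lamin B1 (Lmnb1) fell by 2.07 and by 2.06 (largest adjusted p = 1.78e-07). The desmin gene Des, not well above background in the PR, had at least 4.98 times its PR signal in the RPE and at least 8.85 times in the CH (adjusted p = 1.1e-06 and 1.18e-07). Sync, which codes for syncoilin of muscle and was likewise not above background in the PR, had at least 3.02 and at least 6.66 times its PR signal (adjusted p = 9.77e-06 and 3.66e-07). Medians were 0.09, 0.82 and 0.13.

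Among 15 transcription regulators of epithelial and mesenchymal states, 0 were higher and 3 lower in the RPE than the CH (2 and 9 at an unadjusted p below 0.05). These were Twist1, Snai2 and Twist2, known as regulators of mesenchymal cells, which fell by 1.59, 1.52 and 1.38 (B-H adjusted p = 7.24e-05, 0.00048 and 0.000267). Twist2 was well above background on 3 of 3 CH arrays but on 1 of 3 RPE arrays, so its RPE level is close to background. Against the PR, 5 had more signal in the RPE and 7 in the CH. Zeb2, a repressor that binds E-boxes, was higher by 3.09 and 3.94 in RPE and CH, and Twist1 by 2.24 and 3.83 (largest adjusted p = 3.32e-07). Snai1 and Snai2, related repressors, were not well above background in the PR. The bounds were at least 5.03-fold and at least 12.4-fold for Snai1 (adjusted p = 1.24e-07 and 9.26e-09) and at least 6.65-fold and at least 19.2-fold for Snai2 (adjusted p = 3.93e-07 and 2.23e-08). Medians were -0.44, 0.60 and 0.89, beside 0.04, -0.01 and -0.05 over all probes.

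Other cell types of these layers were read beside the members. Of 7 endothelial markers, 0 were called between RPE and CH (0 at an unadjusted p below 0.05) and 6 exceeded the PR in each, with mean log2 ratios of 0.69 to 1.47 in the CH, 1.02 to 1.11 in the RPE and -1.93 to -1.85 in the PR. Of 6 smooth muscle and pericyte markers 2 were lower in the RPE than the CH, and 5 and 6 exceeded the PR in RPE and CH. Of 7 melanocyte markers 3 were lower in the RPE than the CH and 7 of 7 exceeded the PR in both. Of 6 immune markers 1 was lower in the RPE than the CH, and 2 and 4 exceeded the PR. Of 7 Müller glia markers 1 was lower in the RPE than the CH, and 3 exceeded the PR in each: Glul, Dkk3 and Apoe, which was saturated on all CH and RPE arrays. The other 4, Slc1a3, Aqp4, Kcnj10 and Abca8a, differed by -0.69, -0.42, -0.41 and -0.06 for RPE minus PR. For CH minus PR they differed by -0.98, -0.58, 0.32 and 0.08, and none was called. The list medians were -0.06 for RPE minus PR and 0.32 for CH minus PR. None of 7 cornea and lens markers was called (0, 0 and 2 at an unadjusted p below 0.05), with mean log2 ratios of -1.61 to -0.89 in the PR and those of CH and RPE as given for Vim. The part of these cells in the members' values was not tested.

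By Pearson's r over the 9 arrays, among probes well above background in a whole tissue, the profiles nearest to Cdh1 were Ddr2 (0.9991), Paqr6 and A130022J15Rik, to Cdh11 Zcchc24 (0.9993), Slco2b1 and Arhgap6, and to Vim Zbp1 (0.9992), Lgals1 and E2f2. Those nearest to Krt8 were AK195427 (0.9994), Ddc and Sfrp5, and to Cdh3 ENSMUST00000115995 (0.9996), Col8a1 and Tshr. Nearest to Krt18 were 5730469M10Rik (0.996), Ict1 and Nat8b. For genes with little difference between tissues the top values were lower, 0.9956 for Krt7 (Cdh12), 0.9673 for Cdh2 (Med9), 0.955 for Epcam (Ntsr1) and 0.9476 for Krt19 (Gm8235). These rank likeness of profile across 3 tissues and nothing more.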

How the data were processed

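Gene expression was measured with 9 dual-colour Agilent arrays, 3 each of CH, RPE and PR, with the tissue in Cy5 and a common reference in Cy3. The submitters' processing notes name Agilent Feature Extraction 9.5.3.1, R 2.14.0 and limma. The deposited scanner files hold spot and background intensity values and the log10 ratio the authors' software made from them, with probe positions on mm9, and the authors' deposited series table holds log2 values of Cy5. Depth is not defined for arrays, and their number limits the precision. Mean signals were corrected with normexp (offset 50) and the median local background, and normalised by loess within arrays in limma 3.58.1 (R 4.3.3). Control spots and spots marked as outliers were left out, and repeated spots were averaged. Group means of the 9 arrays were fitted with lmFit and eBayes, and p-values were adjusted by Benjamini-Hochberg over 39429 probes. Tested on simulated data with independent normal noise, the fit of RPE minus CH recovered 88 of 100 probes changed by a log2 value of 2 and 100 of 100 changed by 3. The largest member difference in RPE minus CH was -1.66, and recovery at that size or below was not simulated.

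The reported probe of a gene was the one with the highest mean signal, and all probes of a gene were named. Of each list of related genes the called genes with the largest difference were named, up to 4 per comparison, and for likeness the 3 nearest probes. Members and lists were chosen with earlier results of these data known. Lists were matched by gene name or by RefSeq accession. Probe letters came from the array files and promoter letters from RefSeq (GRCm38.p6). Alternatives covered background, normalisation, channel, thresholds, blocks and each array left out.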

Additional observations from a re-analysis of the deposited data

How the results depend on the processing

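Of 13 member probes, the number called between RPE and CH was 2, and 6 at an FC above 2 (3 higher and 3 lower in the RPE). With each array left out it ranged from 1 (without CH replicate 2) to 6 (without CH replicate 3), and the 2 called without CH replicate 1 were not the same pair. Between RPE and PR it was 7 in every setting, and between CH and PR 6 or 7. Fitted with the replicate number as a replicate block, the counts were 2, 7 and 7, and no member's call changed. Arrays of equal number share no stated animal, and correlations of their deviations from the tissue means were -0.076 to 0.289, so the numbers were not treated as pairs.

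Only differences that were not called changed sign. Krt7 in RPE minus PR (0.02) was -0.34 with the Feature Extraction log ratio, -0.19 with median centring, -0.23 with the Cy5 signal alone and -0.26 in the authors' series table, and -0.071 to 0.083 with 1 array left out. Krt19 in RPE minus PR (0.09) was -0.24, -0.25, -0.14 and -0.15 in those settings and -0.077 with slide as a block, and -0.048 to 0.253 with 1 array left out. Epcam in CH minus PR (-0.25) was 0.28 with slide as a block. With 1 array left out, the second probe of Cdh2 ranged from -0.121 to 0.0012 in RPE minus CH and that of Cdh11 from -0.239 to 0.0117 in RPE minus PR. With median centring Vim was called in RPE minus CH, at -1.63. The cause of these changes was not tested. Under the other scalings the median of all probes in CH minus PR lay between -0.125 and -0.054, where it was -0.05.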
